A study of Mus musculus with 2 samples.

Results

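The genes described here encode the dystrophin glycoprotein complex, and they were taken from the deposited table by symbol. The rule named *Dmd*, *Utrn*, *Dag1*, *Sgca*, *Sgcb*, *Sgcd*, *Sgce*, *Sntb1* and *Sntb2*, and all 9 were found among the 18159 gene symbols of the table. The RNA was that of the tunica muscularis, the muscle coat, of the jejunum, taken from *Dnmt1*-WT and *Dnmt1*-KO mice aged 15 days (P15) on a C57BL/6 background. *Dnmt1*-KO mice carried *Dnmt1* lox/lox alleles and a Cre-eGFP transgene driven by the *Myh11* (smMHC) promoter, so deletion was restricted to smooth muscle cells (SMC), while other cells of the wall kept the gene. The strain label, which gives the *Myh11*-cre,-EGFP transgene and the Dnmt1lox/lox alleles, is shared by both samples. The Results of the paper describe *Dnmt1*-WT mice as carrying Cre-eGFP as well. A free-text description on both samples names the knockout genotype, and the title and genotype label were used instead. Each genotype is represented by 1 library from mice of both sexes, and how RNA of the animals was combined is not given in the sources used here.

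Expression is given in FPKM, fragments per kilobase of transcript scaled to the mapped fragments of the library, so levels of different genes are compared per length. The table does not give the reads behind a gene, so values carry no counting error. Because each genotype has 1 library, differences could not be compared with replicate error, and no p-value is given. Ratios are plain ratios of *Dnmt1*-KO to *Dnmt1*-WT FPKM, and log2 ratios carry the same direction. *Dnmt1*, the targeted gene, had 11.58 FPKM in *Dnmt1*-WT and 7.58 FPKM in *Dnmt1*-KO. All 16 genes listed for smooth muscle contraction, the transcription regulators *Srf* and *Myocd* among them, were above 0 in both libraries. So were 16102 genes of the table, so this alone does not check the tissue label. *Myl6* led the 16 genes at 6441.38 FPKM in *Dnmt1*-WT, where *Acta2* had 5408.13 FPKM and *Myh11* 2685.29 FPKM.

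The complex ties the cytoskeleton of a muscle cell to the matrix around it. Dystrophin binds actin filaments inside the cell and the dystroglycan pair at the membrane, and the outer part of dystroglycan binds laminin through its sugar chains. Sarcoglycans form a transmembrane subcomplex beside dystroglycan, and syntrophins are adaptor proteins that bind dystrophin and gather channels and signaling enzymes. In smooth muscle the complex lies in membrane stripes that also hold caveolae, and ε-sarcoglycan takes a place that α-sarcoglycan holds in striated muscle.

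*Dnmt1*-KO had lower transcript levels of 7 of the 9 genes and higher levels of *Dag1* and *Sgca*. The largest difference was that of *Dmd*, whose ratio was 0.464, followed by *Sntb1* at 0.569 and *Sgcd* at 0.594. The remaining 6 ratios lay between 0.764 for *Sntb2* and 1.24 for *Sgca*. Summed over the 9 genes, the level was 222.84 FPKM in *Dnmt1*-WT and 196.97 FPKM in *Dnmt1*-KO, a ratio of 0.884. *Dag1* made up the greatest part of both sums, and without it the ratio of the remaining 8 genes was 0.736. The values come from whole muscle wall, in which fewer SMC and less RNA per SMC cannot be told apart.

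**Figure D1:**
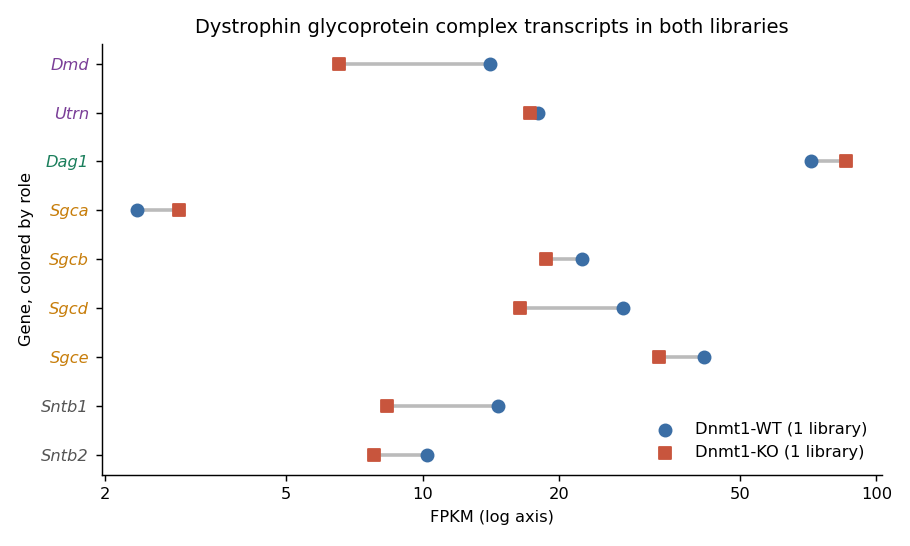
FPKM of the 9 genes on a log axis, 1 circle for the *Dnmt1*-WT library and 1 square for the *Dnmt1*-KO library, joined by a grey line, with gene names colored by role. The longest line to the left is that of *Dmd*, from 14.08 to 6.53 FPKM, and *Dag1* lies highest in both libraries.

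*Dmd* encodes dystrophin, the rod-like protein that gives the complex its name. It lies on chromosome X of GRCm38 from 82948870 to 85206141 on the plus strand, a span of 2257 kb, the longest of the 9 genes. Its level was 14.08 FPKM in *Dnmt1*-WT and 6.53 FPKM in *Dnmt1*-KO, which is 53.6% lower, and it moved from 7th to 8th place among the 9 genes. Of the 16102 genes above 0 FPKM in both libraries, 3.94% had a ratio as low or lower. The table lists 1 *Dmd* transcript variant in each library without naming it, so whether the value counts full-length dystrophin or a shorter product from an internal start is not known. *Dmd* is known to have several starts, and promoters of a start at the 5′ end of the gene and of one 2099425 bases further along are in the RefSeq table used here.

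*Utrn* encodes utrophin, the autosomal relative of dystrophin, which binds the same partners and is found in many cell types, endothelium among them. The gene lies on chromosome 10 from 12382188 to 12869365 on the minus strand. Its level was 17.95 FPKM in *Dnmt1*-WT and 17.29 FPKM in *Dnmt1*-KO. The ratio of 0.963 stayed near 1, and its direction flipped under upper quartile scaling (1.01) and under centring on expression level (1.01), GC content (1.04), genomic span (1.11) or transcript length (1.15). The amount of *Utrn* relative to *Dmd* was 1.27 in *Dnmt1*-WT and 2.65 in *Dnmt1*-KO, a change of 2.08 times that does not depend on scaling between libraries. *Dmd* made up 44.0% of the summed FPKM of both genes in *Dnmt1*-WT and 27.4% in *Dnmt1*-KO.

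Promoters are shown for *Dmd*, the gene with the lowest ratio, and for *Dag1*, the most abundant member. Each is the 250 bases before a start in RefSeq's annotation of GRCm38.p6, read 5′ to 3′ along the gene. Capitals mark CG dinucleotides, the kind of site at which DNMT1 maintains methylation, and in the first sequence the unbroken run of 10 capitals marks a CArG box, the binding motif of SRF.
*Dmd*, 5′ start, chrX:82948620-82948869, plus strand: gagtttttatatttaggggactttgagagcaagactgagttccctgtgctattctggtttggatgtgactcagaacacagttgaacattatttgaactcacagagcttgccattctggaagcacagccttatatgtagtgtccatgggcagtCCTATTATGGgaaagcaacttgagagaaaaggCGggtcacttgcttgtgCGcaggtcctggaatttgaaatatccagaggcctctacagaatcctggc
*Dmd*, internal start, chrX:85048045-85048294, plus strand: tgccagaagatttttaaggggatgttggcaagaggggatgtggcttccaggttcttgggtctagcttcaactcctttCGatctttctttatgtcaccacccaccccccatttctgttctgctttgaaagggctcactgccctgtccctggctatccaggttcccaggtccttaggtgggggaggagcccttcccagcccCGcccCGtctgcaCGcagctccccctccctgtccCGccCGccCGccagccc
*Dag1*, chr9:108263959-108264208, minus strand: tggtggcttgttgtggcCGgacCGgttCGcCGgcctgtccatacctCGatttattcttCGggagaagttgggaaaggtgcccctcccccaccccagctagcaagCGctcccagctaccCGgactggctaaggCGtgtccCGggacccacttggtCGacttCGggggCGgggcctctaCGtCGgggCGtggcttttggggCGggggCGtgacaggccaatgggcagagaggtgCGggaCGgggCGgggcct

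The CArG box, which reads as the same motif on both strands, was searched in this window in all 32851 promoters of the table. It was found in 1.47% of them and in 1 of the 8 promoters that matched the members, the 5′ promoter of *Dmd*. That promoter held 2 CG dinucleotides, against a median of 6 over all promoters, and the internal one held 7. The *Utrn* entry of the table starts 7630 bases inside the gene as GENCODE gives it, at an exon that other GENCODE transcripts hold internally, so it is not shown. The *Dag1* window held 21, and a second *Dag1* start 143 bases further along had 36. These counts describe sequence only. Methylation of these sites was not analysed here, and *Sgce*, *Sntb1* and *Sntb2* had no entry.

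*Dag1* encodes the precursor that is cut into α-dystroglycan, which binds laminin outside the cell, and β-dystroglycan, which spans the membrane. It lies on chromosome 9 from 108204634 to 108263958 on the minus strand. With 71.82 FPKM in *Dnmt1*-WT and 85.8 FPKM in *Dnmt1*-KO it was the most abundant of the 9 genes in both libraries, and its ratio was 1.19. The ratio stayed above 1 under every alternative tried, between 1.11 and 1.38. The level of *Dag1* was 5.10 times that of *Dmd* in *Dnmt1*-WT and 13.1 times in *Dnmt1*-KO. Thus the membrane partner and the cytoskeletal partner of the same link differed in opposite directions between these libraries.

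Among the sarcoglycans, *Sgce* was the most abundant and *Sgca* the least. *Sgce*, which encodes ε-sarcoglycan, lies on chromosome 6 from 4674350 to 4747207 and had 41.69 FPKM in *Dnmt1*-WT and 33.17 FPKM in *Dnmt1*-KO. *Sgcd*, which encodes δ-sarcoglycan and spans 1093 kb of chromosome 11 from 46896253 to 47988969, had 27.64 and 16.42 FPKM. *Sgcb*, which encodes the β-sarcoglycan that pairs with it and lies on chromosome 5 from 73632749 to 73647790, had 22.41 and 18.68 FPKM. The *Dnmt1*-KO level was thus lower by 40.6% for *Sgcd*, 20.4% for *Sgce* and 16.6% for *Sgcb*. *Sgcd* ranked above *Sgcb* in *Dnmt1*-WT and below it in *Dnmt1*-KO, and the amount of *Sgcd* relative to *Sgcb* went from 1.23 to 0.879.

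*Sgca*, the α-sarcoglycan gene of striated muscle, lies on chromosome 11 from 94962791 to 94976327 and was listed at 2.35 FPKM in *Dnmt1*-WT and 2.91 FPKM in *Dnmt1*-KO, a ratio of 1.24. *Sgce* exceeded it 17.7 times in *Dnmt1*-WT and 11.4 times in *Dnmt1*-KO. The level of *Sgca* is the lowest of the members, and its counting error was not computed here. Markers of skeletal muscle moved with it in part: of 10 such genes in the table, all above 0 in both libraries, 7 were higher in *Dnmt1*-KO, among them *Tnni2* (2.58 and 9.5 FPKM), while *Ckm* went from 96.73 to 41.41 FPKM. Their median log2 ratio was 0.89, or 1.24 over those with at least 1 FPKM in one library and 0.43 with a pseudocount of 1. Their summed level was 108.91 FPKM in *Dnmt1*-WT and 75.63 FPKM in *Dnmt1*-KO, a direction set by *Ckm* alone, since the other 9 markers, summed without it after the values were seen, had 12.18 and 34.22 FPKM. The part of skeletal muscle in the *Sgca* value was not tested. All 4 sarcoglycan genes lie on the minus strand.

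The syntrophins *Sntb1* and *Sntb2* encode β1- and β2-syntrophin. *Sntb1*, on chromosome 15 from 55636388 to 55906949 on the minus strand, had 14.68 FPKM in *Dnmt1*-WT and 8.36 FPKM in *Dnmt1*-KO, which is 43.1% lower. *Sntb2*, on chromosome 8 from 106935750 to 107019714 on the plus strand, had 10.22 and 7.81 FPKM, which is 23.6% lower. *Sntb1* was above *Sntb2* in both libraries. The distance between them narrowed from 1.44 to 1.07 times. Both syntrophins lay below a ratio of 1 under every alternative, *Sntb1* between 0.531 and 0.656 and *Sntb2* between 0.713 and 0.911.

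The makeup of each family was taken from the FPKM of its members within a library, which does not depend on scaling between libraries. The 4 sarcoglycans together had 94.09 FPKM in *Dnmt1*-WT and 71.18 FPKM in *Dnmt1*-KO, a ratio of 0.757. The share of *Sgcd* was 29.4% in *Dnmt1*-WT and 23.1% in *Dnmt1*-KO. The shares of the other sarcoglycans were all higher in *Dnmt1*-KO, 46.6% against 44.3% for *Sgce*, 26.2% against 23.8% for *Sgcb* and 4.09% against 2.50% for *Sgca*. The 2 syntrophins together had 24.9 and 16.17 FPKM, a ratio of 0.649, and the share of *Sntb1* was 59.0% in *Dnmt1*-WT and 51.7% in *Dnmt1*-KO. The sum of *Dmd* and *Utrn* was 32.03 and 23.82 FPKM, a ratio of 0.744. Thus *Dmd*, *Sgcd* and *Sntb1* each made up a smaller part of their family in *Dnmt1*-KO.

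**Figure D2:**
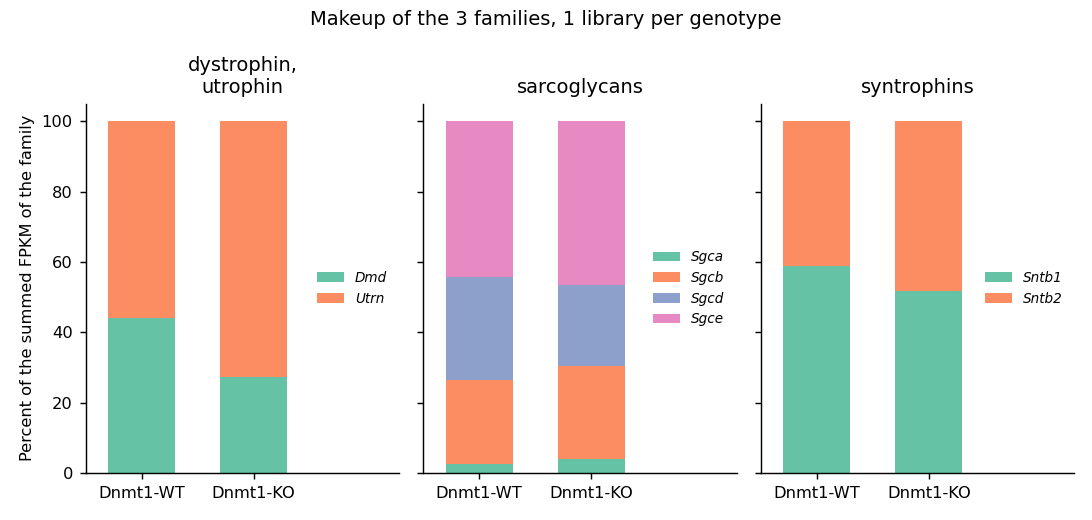
Stacked bars of the percent of summed FPKM that each gene takes within dystrophin and utrophin, the 4 sarcoglycans and the 2 syntrophins, with 1 library per bar and no error bars. *Dmd* makes up 44.0% of its bar in *Dnmt1*-WT and 27.4% in *Dnmt1*-KO, the largest shift of the 3 families.

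Set against the whole table, the members lay toward the lower side. A ratio of 0.5 or less was found for 1 of the 9 genes, *Dmd*, and for 4.98% of the 16102 genes above 0 FPKM in both libraries. A ratio of 0.667 or less was found for 3 genes, *Dmd*, *Sgcd* and *Sntb1*, and for 12.6% of all genes, and a ratio below 1 for 7 genes and 49.1% of all. A ratio above 1 was found for 2 genes and 50.3% of all. No member had a ratio of 1.5 or more, which 19.7% of all genes reached, or of 2 or more, which 11.8% reached. The median log2 ratio was -0.33 for the 9 genes, 0.01 for all genes and -0.03 for the 12758 genes that reached 1 FPKM in both libraries, whose lower quartile was -0.32. Every member belongs to these 12758 genes, of which 2.82% had a ratio of 0.5 or less, 10.5% of 0.667 or less, 52.7% below 1, 47.1% above 1, 12.4% of 1.5 or more and 5.53% of 2 or more. Among the 7054 genes with at least 10 FPKM in one library, which include every member but *Sgca*, 2.93% had a ratio of 0.5 or less, 10.3% of 0.667 or less, 52.9% below 1, 47.1% above 1, 11.2% of 1.5 or more and 5.2% of 2 or more. The share at 0.5 or less was thus lower among expressed genes than in the whole table. The members are few and unlike one another, with log2 ratios from -1.11 to 0.31.

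**Figure D3:**
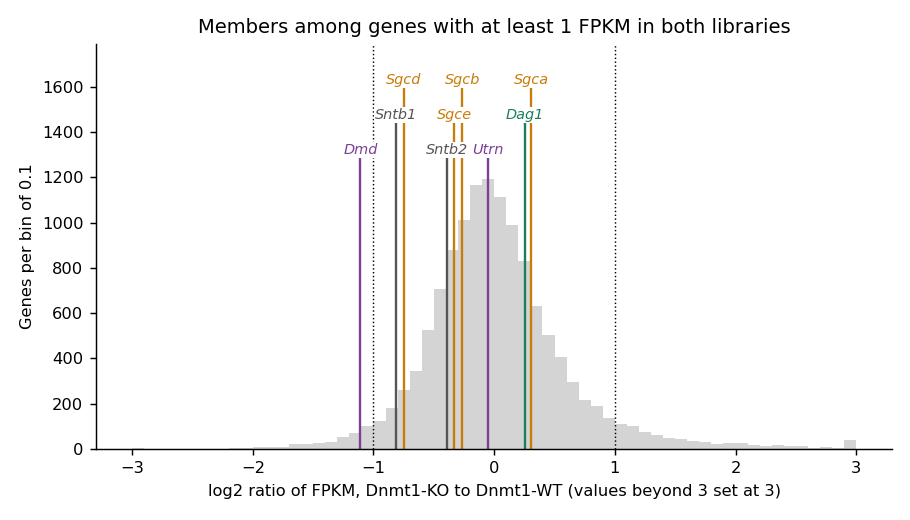
Histogram of the log2 ratio of *Dnmt1*-KO to *Dnmt1*-WT FPKM over the 12758 genes that reached 1 FPKM in both libraries, with a colored line for each member and dotted lines at ratios of 0.5 and 2. *Dmd* is the only member beyond a dotted line, and *Dag1* and *Sgca* are the only ones to the right of 0.

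Other genes of the complex were listed from general knowledge, and all 11 were above 0 FPKM in both libraries. A ratio of 0.5 or less was found for 3 of them. *Sntg2* went from 62.58 to 26.06 FPKM, *Cav3*, which encodes the muscle caveolin that binds dystroglycan, from 43.89 to 18.69 FPKM, and *Sspn*, which encodes sarcospan, a membrane protein of the sarcoglycan subcomplex, from 29.76 to 14.37 FPKM. *Nos1*, the neuronal nitric oxide synthase that syntrophin anchors and that enteric neurons also express, went from 34.07 to 27.18 FPKM. *Dmd*, *Cav3* and other genes of the complex are also expressed in skeletal muscle. Of its 10 markers 7 were higher in *Dnmt1*-KO and 3 lower, *Ckm* among the latter. A ratio of 2 or more was found for 5 of them and for 11.8% of the 16102 genes. Some lay below 1 FPKM in both libraries, such as *Myh2* (0.13 and 0.77 FPKM) and *Myh8* (0.26 and 0.07 FPKM). The part of skeletal muscle fibers in the values of the complex was not tested. The dystrobrevin genes *Dtna* and *Dtnb*, relatives of dystrophin, had 25.37 and 21.12 FPKM and 6.72 and 7.14 FPKM, and were chosen for mention after their values were seen. The median log2 ratio of the 11 genes was -0.15, and it was -0.26 over those with at least 1 FPKM in one library.

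Enzymes that build the laminin-binding sugars of α-dystroglycan made up a list of 17 genes, all above 0 in both libraries. Of these, 10 were lower and 7 higher in *Dnmt1*-KO, and none had a ratio of 0.667 or less. *Gmppb*, which makes the mannose donor, had the highest ratio, 1.79, from 4.99 to 8.95 FPKM. *Dpm3*, a subunit gene of the dolichol-phosphate mannose synthase and the most abundant of the list, had 87.32 and 99.46 FPKM. The median log2 ratio was -0.06.

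On the outer side of the link, 15 genes of laminins, other ligands and basement membrane had a median log2 ratio of 0.08, which turned to -0.02 when each library was divided by its FPKM sum. *Lamb2*, a laminin chain gene, had 135.31 and 117.5 FPKM, *Lamc1*, the common γ chain, 124.25 and 131.69 FPKM, and *Nid1*, which encodes nidogen, 141.05 and 126.6 FPKM. *Bgn*, the gene of biglycan, a proteoglycan that binds dystroglycan and sarcoglycans, was the only one at 2 or more and went from 112.17 to 297.26 FPKM. On the inner side, 12 genes of cytoskeletal partners had a median of -0.13. *Synm*, an intermediate filament gene whose product binds dystrophin and utrophin, went from 269.05 to 113.07 FPKM, while *Krt8*, a keratin gene, went from 24.61 to 57.53 FPKM and *Des*, the desmin gene, from 1279.03 to 1036.06 FPKM.

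The integrin system, the parallel link of muscle cells to the matrix, had a median log2 ratio of -0.32 over 14 genes, close to the -0.33 of the members. *Itgb1*, the common β1 chain, had 377.35 and 283.37 FPKM, *Itga1*, a collagen-binding chain, 57.77 and 32.04 FPKM, and *Itga8*, which pairs with β1, 5.6 and 12.81 FPKM. Genes of caveolae, which lie in the same membrane stripes, had a median of -0.28 over 5 genes. *Cav1*, the main caveolin gene, went from 275.23 to 198.19 FPKM, *Sdpr*, which encodes a cavin, from 93.88 to 51.57 FPKM, and *Prkcdbp*, another cavin gene, from 92.54 to 161.12 FPKM.

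The members were set beside the 16 genes listed for smooth muscle contraction, here called contractile genes. The list includes the transcription regulators *Srf* (94.57 and 55.15 FPKM) and *Myocd* (29.06 and 18.18 FPKM). All 16 were lower in *Dnmt1*-KO, with a median log2 ratio of -0.73. *Smtn*, which encodes smoothelin, had the lowest ratio, from 394.94 to 168.81 FPKM, and *Cnn1*, the calponin gene, the highest, from 690.34 to 616.13 FPKM. *Dmd* had a lower ratio than 14 of the 16, and *Sgcd* and *Sntb1* lay in the middle, with 8 and 7 contractile genes below them. *Utrn*, *Dag1* and *Sgca* lay above all 16, *Sgcb* above 15 and *Sgce* and *Sntb2* above 13. Relative to the contractile median, *Dmd* was at 0.768, *Sgcd* at 0.984, *Sntb1* at 0.943 and the remaining 6 genes between 1.27 and 2.05. *Dmd*, *Sgcd*, *Sntb1*, *Sgcb*, *Sgce* and *Sntb2* thus lay within the range of the contractile genes, and *Dag1*, *Utrn* and *Sgca* above it.

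**Figure D4:**
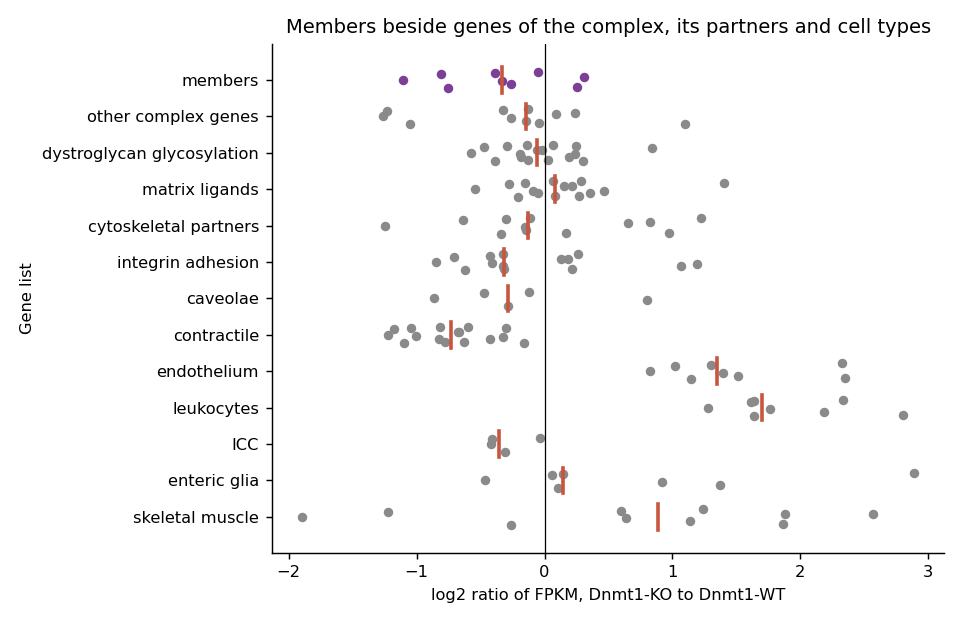
Log2 ratio of *Dnmt1*-KO to *Dnmt1*-WT FPKM for each gene of the members, of their partner lists and of markers of cell types, 1 point per gene above 0 in both libraries, with a red bar at the list median. The contractile median is -0.73, the member median -0.33, and the endothelial and leukocyte medians are 1.35 and 1.70.

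Several members are not confined to SMC, and markers of other cells moved between the libraries. All 8 endothelial markers were higher in *Dnmt1*-KO, 7 of them at a ratio of 2 or more, and their summed level was 62.73 FPKM in *Dnmt1*-WT and 171.14 FPKM in *Dnmt1*-KO. All 8 leukocyte markers had a ratio of 2 or more, with sums of 47.68 and 185.47 FPKM. Markers of vessels and of blood cells were thus higher without exception, while utrophin and dystroglycan are also known from endothelium, glia and epithelium. Of 7 enteric glia markers 6 were higher, with sums of 84.62 and 132.03 FPKM, and of 8 neuronal markers 7 were higher, with sums of 622.83 and 736.07 FPKM. The 4 markers of interstitial cells of Cajal (ICC), the pacemaker cells, all had plain ratios below 1, with sums of 166.94 and 136.77 FPKM. *Kit* stayed near 1, at 38.95 and 38.1 FPKM, and *Etv1* had the lowest ratio of the 4, 0.746. Of 6 fibroblast markers 4 were higher, with sums of 2725.61 and 4145.42 FPKM led by the collagen genes *Col1a1* and *Col3a1*, while *Pdgfra*, a receptor gene, went from 68.95 to 40.72 FPKM. Of 6 mesothelial markers 4 were higher, with sums of 370.46 and 473.25 FPKM, most of the difference being that of *Krt19*, from 96.08 to 188.37 FPKM. Epithelial and adipocyte markers were read as well. Epithelial markers were higher in 6 of 7 cases, with sums of 103.49 and 198.07 FPKM. The 7 adipocyte markers had sums of 109.79 and 1204.6 FPKM, and *Fabp4* made up 103.72 FPKM of the *Dnmt1*-WT sum. *Adipoq* had 0.85 and 46.71 FPKM, and *Lep* was listed at 0 in *Dnmt1*-WT. No marker in the table other than *Lep* was listed at 0 in either library. The part of these cells in the values of *Utrn*, *Dag1* and the remaining members was not tested.

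The number of transcript variants found per gene, deposited beside the FPKM, was equal in both libraries for 6 of the 9 genes and for 73.9% of the 16102 genes above 0 in both. *Dag1* had 6 variants in *Dnmt1*-WT and 8 in *Dnmt1*-KO, *Sgca* 1 and 2, and *Sntb1* 3 and 2. Thus 2 members had more variants in *Dnmt1*-KO and 1 had fewer, against 12.5% and 13.6% of the 16102 genes. *Sgce* had 4 variants and *Utrn* and *Sntb2* 3 in each library, *Sgcd* had 2 and *Sgcb* 1.

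The genes nearest to 3 members in log2(FPKM + 1) over the 2 libraries were found by Euclidean distance, which with so few libraries describes a level and a ratio only. For *Dmd* they were *Timm21* (14.43 and 6.45 FPKM), *C7* (13.93 and 6.31 FPKM) and *Slc4a7* (13.89 and 6.21 FPKM), and 7 genes lay within 0.1. For *Utrn* they were *Cd2bp2*, *Myg1* and *Opa3*, with 86 genes within 0.1. For *Dag1* they were *Emd*, which encodes a nuclear envelope protein (71.04 and 84.3 FPKM), *1810037I17Rik* and *BC031181*, with 14 genes within 0.1. Without replicates, whether neighbours in the order of member levels differ beyond their spread is unknown.

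Dystrophin and utrophin have some of the longest transcripts of the mouse, and ratios in these libraries varied with length. In the longest of 10 equal bins of GENCODE transcript length, which holds *Dmd*, *Utrn* and *Sntb2*, the median log2 ratio was -0.25, and in the shortest it was 0.22. By genomic span the longest bin, which holds *Dmd*, *Utrn*, *Sgcd* and *Sntb1*, had a median of -0.21. Relative to genes of their own bin, *Dmd* had a ratio of 0.553 by transcript length, 0.593 by GC content and 0.535 by genomic span, the last an alternative chosen after seeing the data, so that a ratio of 0.5 or less was no longer reached. Of the 12214 genes so centred, 2.5%, 2.33% and 2.46% were at 0.5 or less, beside 2.82% of the genes that reached 1 FPKM in both libraries by the plain ratio. *Sgcd* moved from 0.594 to 0.76 when centred on GC content and to 0.685 when centred on genomic span, so that 2 members instead of 3 had a ratio of 0.667 or less, beside 8.32% and 8.73% of the centred genes and 10.5% by the plain ratio, and *Sntb1* was at 0.626 and 0.656. *Dmd* remained the lowest of the 9 genes under every alternative tried, between 0.432 and 0.593. The part of transcript length and base composition in the ratios was not tested further.

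**Figure D5:**
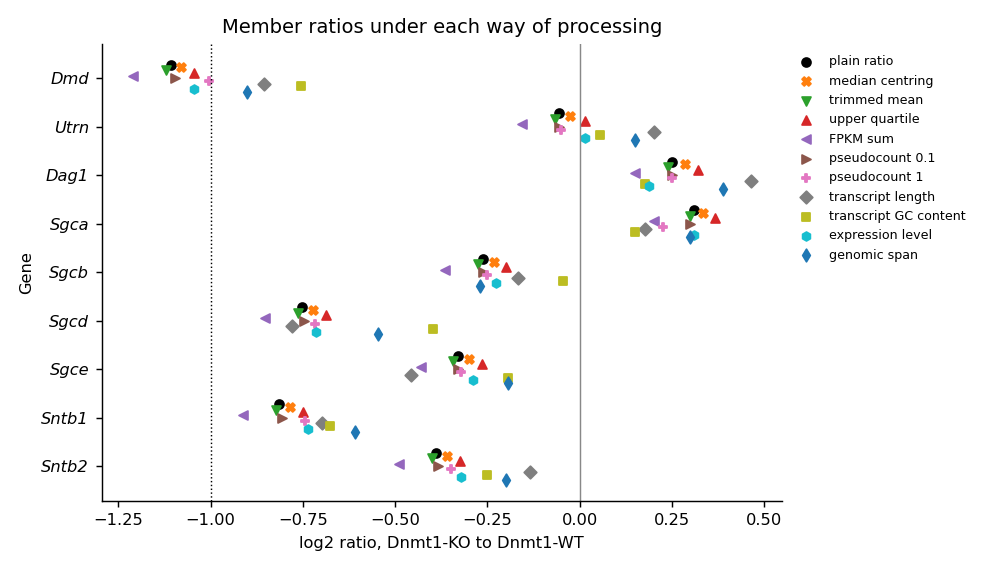
Log2 ratio of each member under the plain ratio (black circle) and 10 other ways of processing, with a grey line at 0 and a dotted line at a ratio of 0.5. *Dmd* stays farthest to the left of the 9 genes in each, while *Utrn* lies on both sides of 0, between ratios of 0.898 and 1.15.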

How the data were processed

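RNA was extracted with the mirVana kit from jejunal tunica muscularis at P15, and TruSeq RNA libraries were sequenced, 1 per genotype. The authors mapped reads to GRCm38/mm10 and deposited FPKM per gene, beside how many transcript variants of the gene were detected. The submitters' processing notes name TopHat 1.4.1 and Cufflinks 2.0.2 without a role. A deposited ratio of *Dnmt1*-KO to *Dnmt1*-WT, the authors' own fold change, was not used. No column lacked a sample. The table holds no read counts, so counting error was not computed, and the lowest value above 0 was 0.03 FPKM.

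Members and gene lists were chosen with earlier results of these data known. The text names all members, in each list the genes most abundant in *Dnmt1*-WT and those with the lowest or highest ratio, marker genes, *Dnmt1* and the 3 genes nearest to *Dmd*, *Utrn* and *Dag1*. Some genes of these lists are not reported here. No statistical test was made. An alternative was taken to move a median when it shifted by over 0.1 on the log2 scale, and to move a ratio or count when it shifted by over 1.5 times. Alternatives were scaling (median, trimmed mean, upper quartile, FPKM sum), pseudocounts of 0.1 and 1, filters on low values, and centring in 10 bins of transcript length, GC content, level and genomic span. Lengths and positions came from GENCODE M21, which names 17204 of the symbols (94.7%). Of the 9 genes, 6 had promoters in the RefSeq table, and the first bases after each start were looked for in GENCODE transcripts. Python 3.11.15, numpy 2.4.6, pandas 2.3.3 and matplotlib 3.10.9 were used.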

Additional observations from a re-analysis of the deposited data

How the results depend on the processing

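No paired analysis was possible because each genotype has 1 library, and no replicate could be left out. Of 90 member ratios under 10 alternatives, 85 kept their side of 1 and moved by less than 1.5 times. The other 5 were those of *Utrn*, which turned from 0.963 to 1.01 with upper quartile scaling, 1.15 with centring on transcript length, 1.04 on GC content, 1.01 on level and 1.11 on genomic span. The median log2 ratio of the members was -0.43 with division by the FPKM sum, which shifts every log2 ratio by 0.10, -0.17 on transcript length, -0.19 on GC content and -0.20 on genomic span, against -0.33, and lay between -0.36 and -0.30 with each member left out. The number of members at a ratio of 0.5 or less was 0 instead of 1 under centring on transcript length, GC content and genomic span, which subtract the median of genes of the same bin. Of the 12214 genes so centred 2.5%, 2.33% and 2.46% were at 0.5 or less, against 2.82% of genes that reached 1 FPKM in both libraries by the plain ratio. The number at 0.667 or less was 2 instead of 3 under GC content (*Sgcd* at 0.76) and genomic span (*Sgcd* at 0.685). A pseudocount of 1 left the member counts at 1 for 0.5 or less, 3 for 0.667 or less and 0 for 1.5 or more. The shares at these ratios were then 1.64%, 6.37% and 10.9% of all 18159 genes, those listed at 0 included. By the plain ratio they were 4.98%, 12.6% and 19.7% of the 16102 genes above 0 in both libraries, so the gene sets differ. The median of the matrix ligands turned to -0.02 with the FPKM sum. Genomic span and the sum without *Ckm* were chosen after seeing the data. Counting error was not computed, and *Sgca* has the lowest level of the members.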

Other observations

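Promoters of 3 further members were read in the same window of 250 bases. *Sgcb*, with a ratio of 0.834, had 14 CG dinucleotides, *Sgcd*, with 0.594, had 9 at a start 609644 bases inside the gene as GENCODE gives it, and *Sgca*, with 1.24, had 4. None of them held a CArG box. Among the contractile genes 12 were in the promoter table, and a CArG box lay in this window for 3 of them.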
